A study of Medicago truncatula with 9 samples.

Results

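The class I small heat shock protein loci Medtr5g081530, Medtr4g088490 and Medtr5g064060 were followed across 9 RNA sequencing libraries of mature Medicago truncatula seeds. They are 3 of 36695 loci in the series and 3 of the 11 loci whose descriptions name this class. The choice used measured values: Medtr5g081530 was taken because it stays dominant and is higher in the mutants, and the other pair because they are lower there. Differences of these loci from the wild type are therefore given as descriptions, without a test, and the comparison between the mutants is the one the choice did not use.

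The 3 genotypes compared had 3 libraries each, and each library was made from 50 seeds taken from different plants. They were hsfa9-2 (line NF13157), hsfa9-1 (line NF10440) and their wild type R108. Both mutant lines carry a Tnt1 insertion in the R108 background, and Tnt1 is a tobacco retrotransposon whose insertion lines commonly carry further copies elsewhere in the genome. Whether the lines were backcrossed is not given in the sources used here. All genotypes shared the same growth regime (20°C/19°C, 16 h light), drying of harvested pods at 43% relative humidity and seed storage at 20°C. No deposited description names HSFA9, so the disrupted gene was not checked in the mutant libraries.

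Small heat shock proteins assemble into oligomers that bind proteins as they unfold and keep them soluble, so that HSP70 and ClpB/HSP100 chaperones can later refold them. Class I members are cytosolic, and in many plants they accumulate in maturing seeds without heat. HSFA9 is a seed-specific heat stress transcription factor, studied mainly in sunflower and Arabidopsis, where it activates small heat shock protein genes.

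The libraries held between 922800.58 and 981284.54 FPKM in all (fragments per kilobase of transcript, scaled by mapped fragments), from a stated average of 24 M reads of 50 bp. Their absolute depth is unknown. A rough estimate of relative depth from low values lay between 0.989 and 1.003 of the mean. It started from equal depth and kept only ratios close to that, so it could hardly have shown unequal depth. Mature seed markers (storage globulins, oleosins, late embryogenesis abundant proteins) summed to between 90611 and 107464 FPKM in hsfa9-2, 75407 and 88764 in hsfa9-1, and 67360.3 and 73042 in R108. Green tissue markers summed to between 3049 and 3272 FPKM in hsfa9-2, 3137 and 3773 in hsfa9-1, and 3987 and 4339 in R108. Seed coat flavonoid markers, with 19 of 40 loci at 1 FPKM or more in at least 3 libraries, summed to between 1862 and 2282 FPKM in hsfa9-2, 1633 and 1798 in hsfa9-1, and 218 and 244 in R108. Nodule markers, 42 of 127 above that level, summed to between 2743 and 4344 FPKM in hsfa9-2, 2505 and 2827 in hsfa9-1, and 1219 and 1399.8 in R108. The 8 leghemoglobin loci, which define nodules, summed to at most 21.8 FPKM in any library, and none was at 0 in every library. These marker sums move with the genotype, and their part in the results below was not tested. Members of each list went both ways against R108 by limma (adjusted p under 0.05), so no sum speaks for its list. In hsfa9-2, 31 of 64 tested mature seed markers were higher and 24 lower, and 18 and 37 of 78 tested green tissue markers. Seed coat had 9 higher and 7 lower there, and nodule 18 and 16. In hsfa9-1 these were 25 and 25, 20 and 25, 10 and 7, and 13 and 16. Over all tested loci, 25.8% were higher and 36.5% lower in hsfa9-2, and 27.6% and 31.9% in hsfa9-1. One library stood apart: for 18 other loci nearly lost from hsfa9-1 (R108 mean of 20 FPKM or more, with no more than 1/50 left in hsfa9-1), hsfa9-2 replicate 1 kept a median of 5.07% of the R108 level. The other hsfa9-2 libraries kept 0.555% and 0.722%, and those of hsfa9-1 between 0.649% and 1.09%.

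Medtr5g081530 was the dominant class I transcript in every library and was more abundant in both mutants. It had 10354.27, 13100.43 and 14964.42 FPKM in hsfa9-2, 7264.48, 7400.92 and 8570.56 FPKM in hsfa9-1, and 4182.89, 4157.65 and 4174.06 FPKM in R108. All 6 mutant libraries lay above the R108 libraries, and the hsfa9-2 libraries lay above those of hsfa9-1. The means were 12806 ± 2319 FPKM in hsfa9-2 and 7745 ± 718 FPKM in hsfa9-1, against 4172 ± 12.8 FPKM in R108 (SD, n = 3 each), or 3.07 and 1.86 times R108. The coefficient of variation was 18.1% in hsfa9-2, 9.27% in hsfa9-1 and 0.307% in R108, so the 3 R108 libraries were nearly equal and the hsfa9-2 libraries were spread. Ranked by FPKM among all loci of a library, it was in place 3 in each hsfa9-2 library, in places 4, 5 and 4 in hsfa9-1, and in places 17, 19 and 18 in R108. Its share of all FPKM was 1.33% ± 0.226 in hsfa9-2, 0.825% ± 0.0612 in hsfa9-1 and 0.439% ± 0.0125 in R108.

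Medtr4g088490 was abundant in R108 and retained a fraction of that level in the mutants. It had 73.02, 73.48 and 68.25 FPKM in hsfa9-2, 36.18, 42.77 and 43.15 FPKM in hsfa9-1, and 311.95, 407.98 and 367.81 FPKM in R108. Each genotype formed its own range, with hsfa9-1 lowest and R108 highest. The mean was 71.6 ± 2.90 FPKM in hsfa9-2, 40.7 ± 3.92 FPKM in hsfa9-1 and 363 ± 48.2 FPKM in R108, which put R108 5.07 times above hsfa9-2 and 8.91 times above hsfa9-1. Between 18.8% and 20.3% of the R108 mean remained in the hsfa9-2 libraries, and between 9.98% and 11.9% in the hsfa9-1 libraries. Replicate 1 of hsfa9-2, which stood apart at the nearly lost loci, lay between its sister libraries here.

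Medtr5g064060 was nearly absent from mutant seeds. It had 0.92, 0.26 and 0.13 FPKM in hsfa9-2, and 0, 0.13 and 0.13 FPKM in hsfa9-1, against 36.63, 44.45 and 49.75 FPKM in R108. The mutant values lay close to whole multiples of 0.13 FPKM (7.08, 2.00 and 1.00 in hsfa9-2), which was the lowest value above 0 at this locus. The mutant ranges touched, since 0.13 FPKM occurred in both. The highest mutant value was again in hsfa9-2 replicate 1, at 2.11% of the R108 mean, against 0.596% and 0.298% in the other hsfa9-2 libraries. All 3 loci passed the filter of at least 1 FPKM in at least 3 libraries, Medtr5g064060 only through R108. In these whole-seed libraries, fewer cells of a type and less RNA per cell cannot be told apart.

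**Figure D1:**
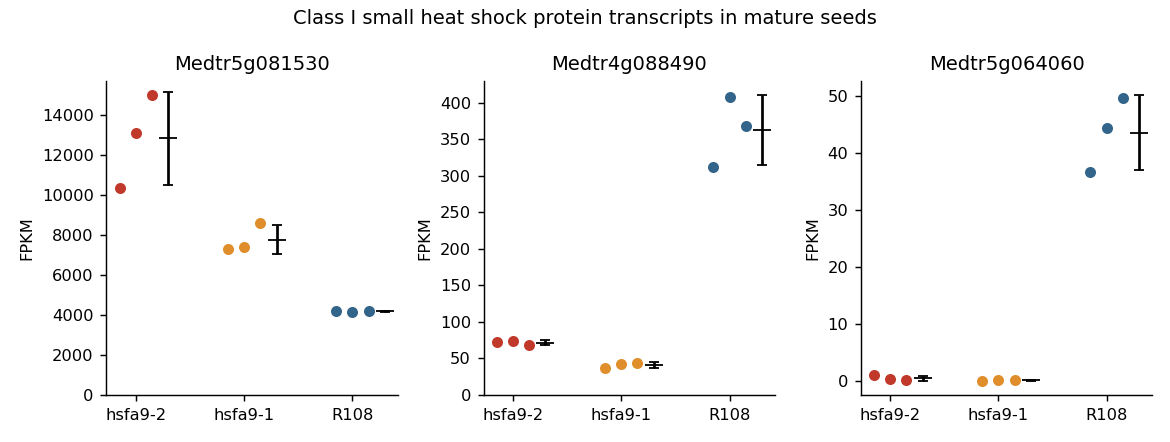
FPKM (vertical axis, linear, one panel per locus) in each library of hsfa9-2, hsfa9-1 and R108, with points for replicates 1 to 3 from left to right and the mean ± SD beside them. Medtr5g081530 lies between 10354.27 and 14964.42 FPKM in hsfa9-2 and near 4172 FPKM in R108, while Medtr4g088490 and Medtr5g064060 are highest in R108.

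On the scale of log2(FPKM + 1), Medtr5g081530 differed from R108 by 1.60 in hsfa9-2 and by 0.89 in hsfa9-1. Medtr4g088490 differed by −2.32 in hsfa9-2 and −3.12 in hsfa9-1. Medtr5g064060 differed by −4.98 in hsfa9-2 and −5.35 in hsfa9-1, sizes that depend on the value of 1 added before taking logarithms. With 0.1 added, they were −6.63 and −7.96. For scale, the median change over the 17508 tested loci was −0.10 in hsfa9-2 and −0.04 in hsfa9-1. The libraries of each mutant did not overlap those of R108 at any of the 3 loci, which the choice of loci fixed, and the same held for 66.4% of tested loci in hsfa9-2 (27.8% higher and 38.6% lower) and 67.1% in hsfa9-1 (31.0% higher and 36.1% lower). The mutants share the R108 libraries, so their changes from R108 are not independent of each other.

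The question left free by the choice is whether the mutants differ from each other. In the limma fit over all tested loci, Medtr4g088490 was higher in hsfa9-2 than in hsfa9-1 by 0.80 on the log2 scale (SE 0.10, 95% interval 0.58 to 1.03, adjusted p = 0.00515), or 1.76 times. Every hsfa9-2 library exceeded every hsfa9-1 library at this locus. Medtr5g081530 was higher in hsfa9-2 by 0.71 (SE 0.13, 95% interval 0.43 to 0.99, adjusted p = 0.028), or 1.65 times, again without overlap. Medtr5g064060 is not compared between the mutants, because at 0 to 0.92 FPKM the estimate is set by the value added before taking logarithms (0.37 with 1 FPKM added and 1.33 with 0.1). Of the 17508 tested loci, 1.12% were called between the mutants (0.491% higher and 0.628% lower in hsfa9-2), and 19.1% had groups that did not overlap (5.57% higher and 13.5% lower). Centring each library on its median turned the calls to 114 higher and 78 lower, where the deposited scale gave 86 and 110, and left Medtr5g081530 (0.77) and Medtr4g088490 (0.86) higher in hsfa9-2.

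These calls were not equally firm. The call of Medtr4g088490 held in all 17 alternatives tried, with adjusted p between 0.00222 and 0.0254. That of Medtr5g081530 held in 9 of 17, with adjusted p between 0.00633 and 0.117. It was lost when hsfa9-2 replicate 2 or 3, hsfa9-1 replicate 1 or 2, or R108 replicate 2 or 3 was left out (adjusted p = 0.0964, 0.0621, 0.101, 0.117, 0.055 and 0.0627), with estimates between 0.59 and 0.71. Without hsfa9-2 replicate 1, the library that stood apart, the difference was 0.86 (adjusted p = 0.00633) at Medtr5g081530 and 0.79 (adjusted p = 0.017) at Medtr4g088490.

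The ratio of FPKM between Medtr5g081530 and Medtr4g088490 within a library does not depend on how the library was scaled. Medtr5g081530 had 142, 178 and 219 times the FPKM of Medtr4g088490 in hsfa9-2, 201, 173 and 199 times in hsfa9-1, and 13.4, 10.2 and 11.3 times in R108. The ranges of the mutants overlapped. Both lay above R108, which the choice of a rising and a falling locus fixed. FPKM is a level per length, so this is a ratio of transcript levels. The log2 ratio of Medtr4g088490 to Medtr5g064060, each with 1 FPKM added, was 5.27, 5.89 and 5.94 in hsfa9-2, 5.22, 5.28 and 5.29 in hsfa9-1, and averaged 3.03 ± 0.156 in R108 (SD, n = 3). In the mutants this ratio rests on the added value, and the difference of hsfa9-2 minus hsfa9-1 turned from 0.44 to −0.52 when 0.1 FPKM was added instead, so no comparison of the mutants is drawn from it.

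**Figure D2:**
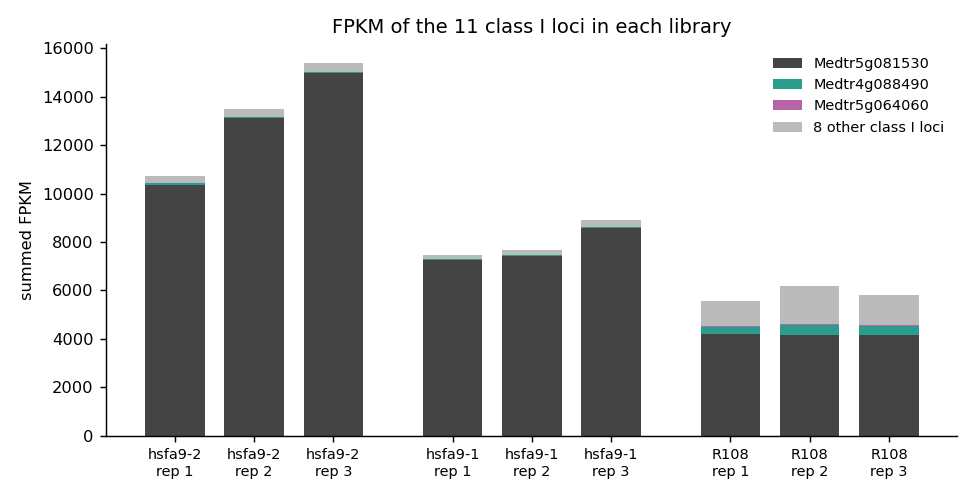
Summed FPKM of the 11 class I loci (vertical axis, linear from 0) in each library, stacked as Medtr5g081530, Medtr4g088490, Medtr5g064060 and the 8 other class I loci. Medtr5g081530 fills 96.9% of the bar on average in each mutant and 71.5% in R108, and Medtr5g064060 is at most a thin line, in R108.

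Among all 11 class I loci, the mutants had more transcript in total but nearly all of it from a single locus. That locus, Medtr5g081530, was chosen as dominant and higher in the mutants, so both points follow largely from the choice. The class I sum was 13210.0 ± 2353 FPKM in hsfa9-2 and 7998 ± 779.7 FPKM in hsfa9-1, against 5846 ± 301 FPKM in R108. Medtr5g081530 supplied 96.9% ± 0.329 of it in hsfa9-2, 96.9% ± 0.544 in hsfa9-1 and 71.5% ± 3.87 in R108. Medtr4g088490 supplied 0.556% ± 0.119 in hsfa9-2, 0.510% ± 0.0426 in hsfa9-1 and 6.19% ± 0.524 in R108. Without Medtr5g081530, the class I sum was 404 ± 34.5 FPKM in hsfa9-2 and 252 ± 65.8 FPKM in hsfa9-1, against 1674 ± 314 FPKM in R108. The 8 loci outside the trio summed to 332 ± 37.5 FPKM in hsfa9-2 and 212 ± 62.4 FPKM in hsfa9-1, against 1268 ± 264 FPKM in R108. How the authors' quantification shared reads among near-identical copies is not known, so the split between these loci is uncertain.

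By rank within the class, Medtr5g081530 was first in each genotype, with no library overlapping the next locus. In R108 the next places were held by Medtr6g061850, Medtr4g088450 and Medtr4g088490, at 501 ± 110.1, 405 ± 94.5 and 363 ± 48.2 FPKM, whose libraries overlapped from one place to the next. Medtr5g064060 was in place 8 in R108, where it overlapped its neighbours Medtr4g064993 (44.2 ± 4.60 FPKM) and Medtr4g088445 (34.3 ± 3.59 FPKM). It dropped to place 10 in both mutants, above Medtr6g022000 alone, and overlapped it in both and Medtr4g088475 in hsfa9-2. Medtr4g088490 was in place 5 in both mutants and overlapped the locus above it but not the one below. Medtr4g064993 moved up to place 4 in hsfa9-2 and place 2 in hsfa9-1, but its libraries overlapped those of the next locus in both.

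The 8 other class I loci were tested against R108 in the same fit. Medtr6g022000 passed the filter only through R108, and Medtr4g088475 would not have passed without R108, so that both had to differ and their falls count for nothing beyond their values. In hsfa9-2, 7 of the 8 fell and 1 rose, beside 62.3% of all tested loci called (36.5% fell and 25.8% rose). In hsfa9-1, 7 fell and 1 rose, beside 59.5% called (31.9% fell and 27.6% rose). Their median log2 change was −2.33 in hsfa9-2, against −0.10 over all tested loci, and −2.78 in hsfa9-1, against −0.04. These counts and medians include Medtr6g022000 and Medtr4g088475, which lend them no support. Centring each library on its median changed the balance over all loci in hsfa9-2 to 5634 higher and 5070 lower, where the deposited scale gave 4511 and 6391. The counts among the 8 loci stayed at 7 falls and 1 rise in each mutant with that centring.

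The locus that rose was Medtr4g064993, which averaged 77.3 ± 8.74 FPKM in hsfa9-2 (adjusted p = 4.58e-05) and 64.5 ± 3.30 FPKM in hsfa9-1 (adjusted p = 0.000737), against 44.2 ± 4.60 FPKM in R108. Its gain of 1.75 times in hsfa9-2 and 1.46 times in hsfa9-1 was from a level about that of Medtr5g064060 in R108. The falls ranged in size. Medtr4g088475 fell to 0.990 ± 0.329 FPKM in hsfa9-2 and 0.507 ± 0.0551 FPKM in hsfa9-1, against 11.5 ± 4.89 FPKM in R108. Medtr6g022000 fell to 0.14, 0 and 0 FPKM in hsfa9-2 and had 0, 0 and 0 FPKM in hsfa9-1, against 4.09, 5.63 and 3.84 FPKM in R108.

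The other 5 class I loci that fell stayed above 1 FPKM in every mutant library, as Medtr4g088490 did and Medtr5g064060 did not. Medtr6g061850 had 92.0 ± 11.8 FPKM in hsfa9-2 and 52.1 ± 19.8 in hsfa9-1, against 501 ± 110.1 in R108. Medtr4g088450 had 81.9 ± 15.2 FPKM in hsfa9-2 and 49.1 ± 29.9 in hsfa9-1, against 405 ± 94.5 in R108. Medtr6g061940 had 54.1 ± 11.6 FPKM in hsfa9-2 and 29.1 ± 7.32 in hsfa9-1, against 182 ± 31.5 in R108. Medtr4g091590 had 13.4 ± 2.31 FPKM in hsfa9-2 and 10.2 ± 0.878 in hsfa9-1, against 85.4 ± 19.1 in R108. Medtr4g088445 had 11.8 ± 2.78 FPKM in hsfa9-2 and 6.15 ± 2.54 in hsfa9-1, against 34.3 ± 3.59 in R108. The adjusted p-values of these 5 falls by limma ran from 1.24e-07 (Medtr4g091590, hsfa9-1) to 0.000348 (Medtr4g088450, hsfa9-2).

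**Figure D3:**
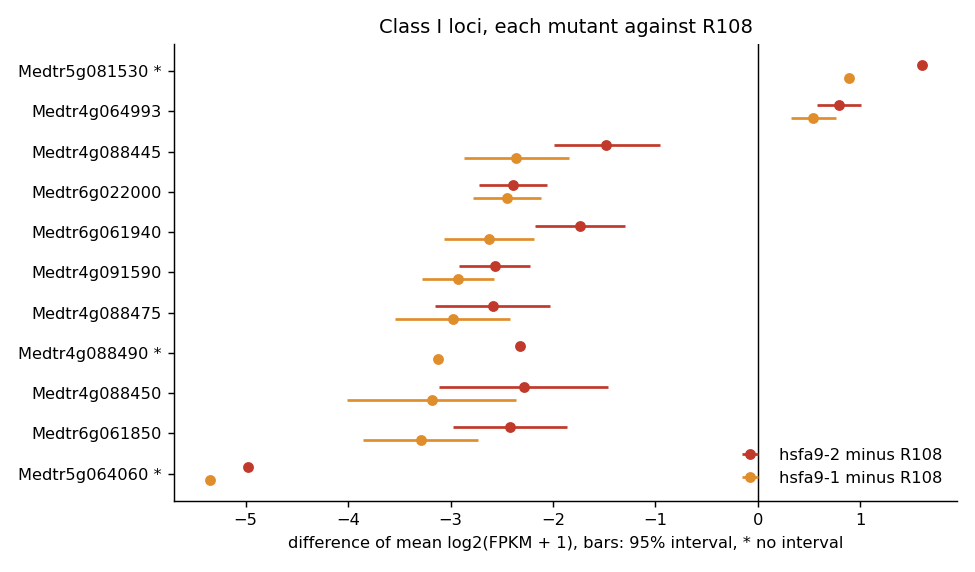
Difference of mean log2(FPKM + 1) from R108 (horizontal axis) for the 11 class I loci, with hsfa9-2 above hsfa9-1 at each locus. Bars are 95% intervals of the limma fit, not drawn for the 3 loci marked with an asterisk, which were chosen by this difference. Medtr5g081530 (1.60 and 0.89) and Medtr4g064993 (0.79 and 0.54) lie above 0, and Medtr5g064060 is the lowest.

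Between the mutants none of these 8 loci was called by limma at an adjusted p of 0.05. Their median log2 difference was 0.63, against −0.05 over all tested loci. That median includes Medtr4g088475 and Medtr6g022000, which averaged at most 0.990 FPKM in either mutant, where the added 1 FPKM weighs on the estimate. Medtr6g061940 differed by 0.88 (95% interval 0.45 to 1.32, adjusted p = 0.0727) and Medtr4g088445 by 0.88 (0.37 to 1.39, adjusted p = 0.124). Medtr6g061850 differed by 0.87 (0.31 to 1.43, adjusted p = 0.161) and Medtr4g088450 by 0.90 (0.07 to 1.72, adjusted p = 0.304). The estimates for these loci were as large as that of Medtr4g088490, with wider intervals. Whether the called loci differ from them in this respect was not tested.

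**Figure D4:**
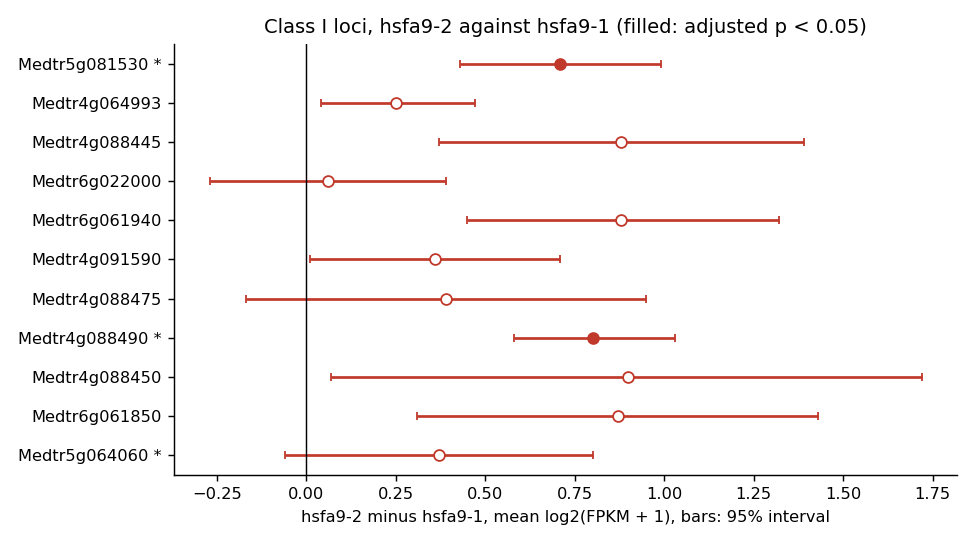
Difference of hsfa9-2 minus hsfa9-1 in mean log2(FPKM + 1) (horizontal axis) for the 11 class I loci, with 95% intervals before any adjustment; the value of Medtr5g064060 is set by the added 1 FPKM. Filled points passed an adjusted p of 0.05, which Medtr5g081530 (0.71) and Medtr4g088490 (0.80) did. Asterisks mark the 3 loci described first.

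Gene order was taken from the RefSeq table of assembly MtrunA17r5.0-ANR, in which 10 of the 11 class I loci were found by their protein accession, and no coordinates are given because the build behind the deposited values is not known. Whether this order holds in R108 was not checked. Medtr4g088490 lies on chromosome 4 within 5 genes of the class I loci Medtr4g088445 and Medtr4g088450, and all of them had lower means in both mutants than in R108. Its next gene, Medtr4g088500, described as a MACPF domain protein, had 1.16 ± 0.335 FPKM in hsfa9-2, 0.917 ± 0.0681 in hsfa9-1 and 0.950 ± 0.0889 in R108, and was not called in either mutant against R108 (adjusted p = 0.425 and 0.893).

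Medtr5g081530 and Medtr5g064060, both on chromosome 5, had no other class I locus within 10 genes. The genes on either side of Medtr5g064060 were not called. Medtr5g064040, described as an outer arm dynein light chain, had 135 ± 9.10 FPKM in hsfa9-2 and 145 ± 4.60 in hsfa9-1, against 141 ± 1.52 in R108 (adjusted p = 0.365 and 0.597). Medtr5g064080, described as a methyltransferase, had 12.7 ± 0.802 FPKM in hsfa9-2 and 12.7 ± 0.384 in hsfa9-1, against 13.5 ± 0.454 in R108 (adjusted p = 0.367 and 0.394).

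Loci with the most similar pattern were sought among 8155 described loci of at least 10 FPKM on average. Likeness was measured as the root mean square difference, over the 9 libraries, of log2(FPKM + 1) relative to the R108 mean. It describes level patterns only, and it includes the contrast by which the loci were chosen.

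Closest to Medtr5g081530 was Medtr4g011230, a late embryogenesis abundant protein of group 3, at 0.150, with 20778 ± 3518 FPKM in hsfa9-2 and 15704 ± 2359 in hsfa9-1, against 7442 ± 408 in R108. A ferritin (Medtr4g014540, 0.154), an iron storage protein, came next, followed by an NDH-dependent flow 6 protein (Medtr3g435320, 0.162) and a cytochrome b6f subunit (Medtr1g034260, 0.174), both of the photosynthetic electron transport chain. The only class I locus near it was Medtr4g064993 at 0.538, where the median over candidate loci was 1.143 and the other class I loci lay between 2.594 and 5.249.

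Closest to Medtr4g088490 were a gibberellin-regulated family protein (Medtr1g018640, 0.218), a costars family protein (Medtr2g009660, 0.233), a nudix hydrolase (Medtr4g100480, 0.233) and a Bet v I family protein (Medtr8g045520, 0.240). The class I loci Medtr4g091590 (0.257) and Medtr6g061850 (0.273) were about as close, where the median over candidates was 2.205. The gibberellin-regulated locus averaged 92.5 FPKM in hsfa9-2 and 50.1 in hsfa9-1, against 429.6 in R108, with log2 differences from R108 of −2.20 in hsfa9-2 and −3.08 in hsfa9-1.

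Closest to Medtr5g064060 were a uridine kinase/uracil phosphoribosyltransferase (Medtr4g103620, 0.203), which salvages pyrimidines, and a blue copper-like protein (Medtr6g013420, 0.225). Medtr3g104780 (0.307), of class II, and a zinc finger protein (Medtr1g054450, 0.327) followed. Its nearest class I locus was Medtr6g061850 at 1.937, and the median over candidates was 4.182. With mutant values near 0, these distances rest largely on the R108 level and the added 1 FPKM. Medtr6g022000, also near 0 in the mutants but at 4.52 FPKM in R108, lay at 2.258. The uridine kinase locus had 0.673 ± 0.959 FPKM in hsfa9-2 and 0.120 ± 0.0400 in hsfa9-1, against 47.2 ± 1.64 in R108.

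**Figure D5:**
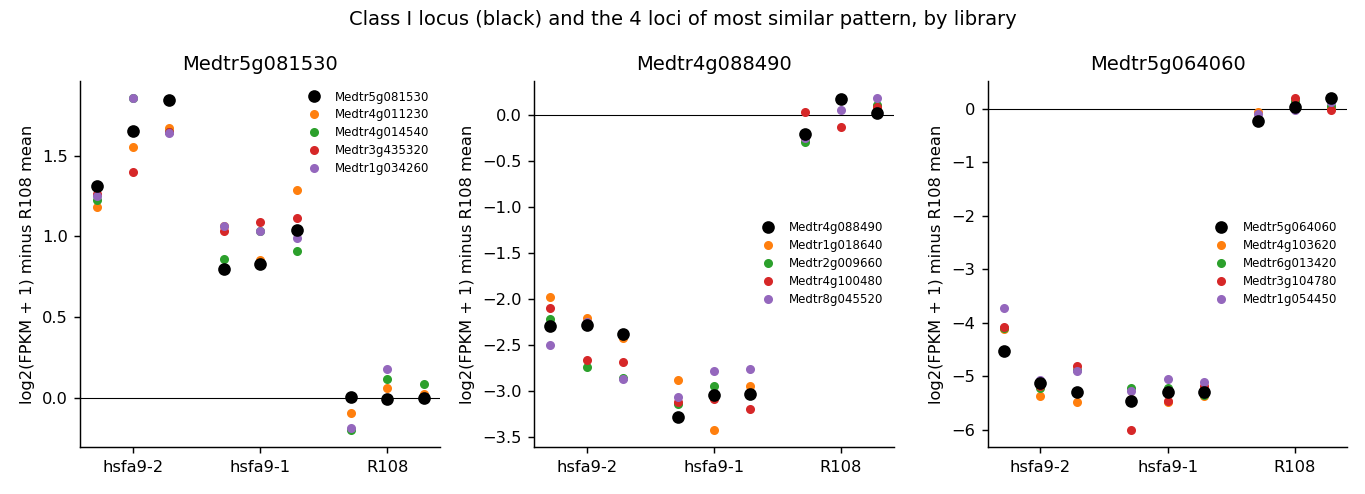
log2(FPKM + 1) minus the R108 mean (vertical axis) in each library for Medtr5g081530, Medtr4g088490 and Medtr5g064060 (black) and the 4 loci of most similar pattern (colours), with replicates 1 to 3 from left to right in each genotype. The root mean square differences run from 0.150 to 0.174, 0.218 to 0.240 and 0.203 to 0.327 in the 3 panels.

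The other chaperone groups were counted in the same fit. All 4 cytosolic class II small heat shock proteins, a sister class that forms separate oligomers, fell in each mutant, beside 36.5% of all tested loci that fell in hsfa9-2 and 31.9% in hsfa9-1. Their median log2 change was −5.29 in hsfa9-2, against −0.10 over all tested loci, and −5.93 in hsfa9-1, against −0.04. Their summed level was 146 ± 21.5 FPKM in hsfa9-2 and 71.6 ± 23.4 FPKM in hsfa9-1, against 1215 ± 151 FPKM in R108. Medtr3g104780 fell to 30.5 ± 12.8 FPKM in hsfa9-2 and 15.9 ± 4.66 FPKM in hsfa9-1, against 778 ± 109 FPKM in R108. Medtr3g092460 fell to 0.980 ± 1.70 FPKM in hsfa9-2 and 0.187 ± 0.122 FPKM in hsfa9-1, against 92.0 ± 3.68 FPKM in R108. That locus would not have passed the filter without R108, so it had to differ. The count of 4 and the medians include Medtr3g092460, and its fall lends them no support.

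Of 36 remaining small heat shock proteins, 21 were tested, and 10 fell and 5 rose in hsfa9-2, while 11 fell and 4 rose in hsfa9-1. The share called, 71.4% in each mutant, was near that of all tested loci (62.3% in hsfa9-2 and 59.5% in hsfa9-1), so the count is no result about these loci, and their median log2 changes were −0.25 and −0.27. Medtr3g052760, described as a localized small heat shock protein and above the filter only in R108, fell to 0.593 ± 0.310 FPKM in hsfa9-2 and 0.267 ± 0.0924 FPKM in hsfa9-1, against 27.7 ± 3.34 FPKM in R108. Medtr1g069065, described as an HSP20-like chaperone, rose to 207 FPKM in hsfa9-2 and 219 FPKM in hsfa9-1, against 90.3 FPKM in R108 (log2 changes 1.19 and 1.27, SE 0.06 each).

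ClpB/HSP100 disaggregases, which pull proteins out of aggregates, had 3 rises and 1 fall among 4 tested loci in each mutant, beside 25.8% of all tested loci that rose in hsfa9-2 and 27.6% in hsfa9-1. Medtr4g109450, described as ClpB, rose to 1138 ± 80.5 FPKM in hsfa9-2 and 867 ± 30.3 FPKM in hsfa9-1, against 319 ± 19.7 FPKM in R108, and it was higher in hsfa9-2 than in hsfa9-1 (0.39, adjusted p = 0.0367). Medtr3g106160, a putative ClpB, fell to 31.1 ± 2.27 FPKM in hsfa9-2 and 33.9 ± 1.20 FPKM in hsfa9-1, against 57.7 ± 1.37 FPKM in R108.

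HSP70 loci, which refold proteins released by small heat shock proteins, had 12 falls and 6 rises in hsfa9-2 and 10 falls and 6 rises in hsfa9-1 among 19 tested. That is 94.7% called in hsfa9-2, against 62.3% of all tested loci, and 84.2% in hsfa9-1, against 59.5%, with median log2 changes of −0.40 and −0.30. Medtr7g024580, a cognate form, rose to 233 ± 15.2 FPKM in hsfa9-2 and 291 ± 3.33 FPKM in hsfa9-1, against 129 ± 3.63 FPKM in R108, and was lower in hsfa9-2 than in hsfa9-1 (−0.32, adjusted p = 0.0367). Medtr2g102180, Medtr3g081170 and Medtr8g099795 fell, with log2 changes of −1.13, −1.96 and −2.92 in hsfa9-2 and −1.27, −1.88 and −2.81 in hsfa9-1. Heat stress transcription factors had 8 falls and 6 rises in hsfa9-2 and 8 falls and 4 rises in hsfa9-1 among 18 tested. The share called was 77.8% in hsfa9-2, against 62.3% of all tested loci, and 66.7% in hsfa9-1, near the 59.5% of all tested loci, with medians of 0.07 and 0.09. The falls of lowest p were Medtr4g088900 (−2.67 in hsfa9-2 and −2.63 in hsfa9-1) and Medtr5g089170 (−3.05 in hsfa9-2 and −3.43 in hsfa9-1). Both are described only as heat shock transcription factors and passed the filter only through R108, so both had to differ. The counts and shares of this list include them, so neither is read as a result about these factors.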

How the data were processed

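Per the labels, libraries were sequenced on the BGISEQ-500 platform. Deposited by the authors were FPKM values for 42631 transcript models. HISAT, HISAT2, Bowtie2 and RSEM are named, without roles or versions, in the submitters' processing notes. The sources used here give no build, annotation or filter. FPKM was added up per locus (each of the 3 loci has 1 model). The filter of 1 FPKM in 3 or more libraries left 17508 of 36695 loci. The 9 libraries were fitted together on log2(FPKM + 1) with limma 3.58.1 under R 4.3.3 and statmod 1.5.0, using trend and robust options. Benjamini-Hochberg adjustment covered all tested loci of a comparison (threshold 0.05). A log2 change is a difference of means on that scale and understates ratios at low FPKM. Scripts were tested on simulated data.

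The 3 loci and the gene lists, built from words in the descriptions, were chosen with earlier results of these data known. Named loci were the 11 class I loci, per list the 2 of lowest p in each mutant against R108, and the 4 of most similar pattern per locus. Neighbouring genes and Medtr1g015165 were added after their values were seen. RefSeq protein accessions matched 18637 loci. The labels say that seeds came from different plants, and p-values measure the spread between such libraries. Alternatives were another pseudocount, no filter, median centring, removal of the 100 most abundant other loci, plain limma, only the groups compared, a replicate block, the most abundant model, and each library left out.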

Additional observations from a re-analysis of the deposited data

Results flagged for a closer look

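Medtr5g081530 and Medtr4g088490 differed from R108 by unequal amounts in the 2 mutants, by limma's contrast of hsfa9-2 with hsfa9-1, in which 1.12% of all tested loci were called and 19.1% had groups that did not overlap. Medtr5g081530 was further above R108 in hsfa9-2 (1.60) than in hsfa9-1 (0.89), a difference of 0.71 on the log2 scale (adjusted p = 0.028), with 3 of 3 hsfa9-2 libraries above all hsfa9-1 libraries, and this call was lost in 8 of 17 alternatives. Medtr4g088490 was less far below R108 in hsfa9-2 (−2.32) than in hsfa9-1 (−3.12), a difference of 0.80 (adjusted p = 0.00515), also with 3 of 3 libraries above. In hsfa9-2, Medtr5g081530 was lowest in replicate 1, the library with the highest residual level of nearly lost loci, and Medtr4g088490 was not extreme there. What sets that library apart was not tested.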

How the results depend on the processing

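Of 314 values recomputed under other settings, 289 kept their direction and their side of the threshold, or stayed within the replicate spread or 1.5 times the count. The difference of Medtr5g081530 between the mutants stayed at 0.71 but lost its call without the low-value filter (adjusted p = 0.0616, with 33625 loci tested) and with only the 2 mutants in the fit (adjusted p = 0.109), and lay between 0.59 and 0.86 with a library left out (adjusted p 0.00633 to 0.117 over all alternatives). With 0.1 added in place of 1, Medtr5g064060 differed from R108 by −6.63 in hsfa9-2 and −7.96 in hsfa9-1. With that setting the log2 ratio of Medtr4g088490 to Medtr5g064060 between the mutants turned to −0.52 (0.44 with 1 added), so its direction rests on the added value, as does the size of the difference of Medtr5g064060 between the mutants (1.33, against 0.37). The 196 loci called between the mutants became 126 without the filter, 104 with only the mutants in the fit, 118 with the most abundant model of each locus, and 94 to 324 with a library left out (324 without hsfa9-2 replicate 1, 94 without hsfa9-1 replicate 2). Median centring moved their split to 114 higher and 78 lower, where the deposited scale gave 86 and 110. Counts of other class I loci and of other small heat shock proteins called between the mutants, 0 of 8 and 0 of 25, were 0 to 1 each with a library left out: Medtr4g088445 and the class II locus Medtr1g015165 were called without hsfa9-1 replicate 3. Replicate numbers did not pair libraries: deviations of same-numbered libraries correlated between −0.12 and 0.1 (9 pairs, none over 0.1). In addition, 0 of 9 libraries correlated best with their own number in both other genotypes. With the replicate block 1 other class I locus (Medtr6g061940, adjusted p = 0.047) and 1 other small heat shock protein (Medtr1g015165, adjusted p = 0.0263) were called, and the calls of Medtr5g081530 (0.71) and Medtr4g088490 (0.80) held. Absolute depth is unknown, so no counting error is given for low FPKM.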
